A study of Mus musculus with 12 samples.

Results

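The cytoplasmic ribosomal protein genes are the genes for the protein parts of the ribosomes that translate nuclear mRNAs. They were taken as all genes whose mm10 symbol in GENCODE M21 is Rpl or Rps with a number and an optional a, l or x, plus Rplp0, Rplp1, Rplp2 and Rpsa, with a mean of at least 10 CPM (the gene's counts scaled to library size) over 12 libraries and without pseudogenes. Of 54100 features shared by all files, 83 fitted the name and 80 of these passed the minimum, 48 of the large and 32 of the small subunit. The lowest member was Rps10, with a mean of 22.3 CPM, and the highest gene left out was Rpl24, with 3.90 CPM. Rpl3l (0.953 CPM) and Rpl10l (no count in any library) were also left out.

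RNA with poly(A) tails from mouse cells of the C57BL/6J strain was sequenced in 6 groups of 2 libraries, in a study of the kinase CK1α (gene Csnk1a1) and cGAS-STING signalling. Cells given SSTC3, which is known to activate CK1α, were compared with cells given its solvent DMSO. The label BMDM, for bone marrow-derived macrophages, is given to the cells of both these groups, with the names TREX1-KO and TREX2-KO for the SSTC3 libraries and TREX3-KO and TREX4-KO for the DMSO libraries. MEF (mouse embryonic fibroblasts) labelled for CK1a overexpression (CK1a_OE) were compared with their own overexpression controls (OE_control), and MEF with an siRNA against CK1a (CK1a_KD) with their own knockdown controls (KD_control). No label gives a dose, a time, a construct, an age or the number of cultures, so the error behind each p-value is that between 2 libraries of a label and may be technical only.

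Library totals ran from 16063627 to 19427506 counts. Csnk1a1 had 174 and 172 CPM in CK1a_KD, against 322 and 349.5 CPM in KD_control, a log2 fold change of −0.96 ± 0.05 (adjusted p = 2.88e-27). The libraries labelled CK1a_OE did not show more of it, with 229 and 243 CPM in CK1a_OE, against 239 and 236 CPM in OE_control (−0.01 ± 0.04, adjusted p = 0.901). With SSTC3 it had 436 and 432 CPM in SSTC3, against 405 and 423 CPM in DMSO (0.07 ± 0.04, adjusted p = 0.111). The 4 libraries labelled BMDM went against that label: Adgre1, Itgam, Tyrobp, Ctss and Aif1 had no count in any of them, and 21 macrophage markers summed to 11.7 and 12.3 CPM in SSTC3, against 9.8 and 9.6 CPM in DMSO. The fibroblast gene Col1a2 had 904 and 926 CPM in SSTC3, against 1491 and 1468 CPM in DMSO. They are called the SSTC3 and DMSO cells here.

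A ribosome holds a small subunit, which reads the mRNA, and a large subunit, which joins amino acids, and each protein is needed in about the same number of copies as the others. Most mRNAs of this family begin with a C followed by a run of pyrimidines, the 5′ terminal oligopyrimidine (TOP) motif, through which the kinase mTORC1 and the protein Larp1 set their translation and stability. Free ribosomal proteins of the 5S particle, Rpl5 and Rpl11, bind Mdm2 and thereby raise p53. Many of the genes also host small nucleolar RNAs (snoRNAs) in their introns.

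The start regions of a few members are shown because the TOP motif is the sequence feature this family is known for. Each window holds 15 bases before and 15 bases from the annotated RefSeq start on (GRCm38.p6), on the strand of the gene and 5′ to 3′. Capitals mark a C followed by at least 4 pyrimidines (C or T) that begins within 5 bases of the start. Rpl27a (chr7:109519180-109519209, plus strand) and Rpl35 (chr2:39005117-39005146, minus strand) have long runs. Rpl22l1 (chr3:28805493-28805522, plus strand) and Rps27 (chr3:90213634-90213663, minus strand) had the largest rises with SSTC3. Rps4x (chrX:102189377-102189406, minus strand) and Rplp0 (chr5:115559452-115559481, plus strand) hold no such run here.
Rpl27a: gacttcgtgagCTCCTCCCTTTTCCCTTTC
Rpl35: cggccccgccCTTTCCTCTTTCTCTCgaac
Rpl22l1: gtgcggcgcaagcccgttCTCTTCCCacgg
Rps27: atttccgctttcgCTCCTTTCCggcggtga
Rps4x: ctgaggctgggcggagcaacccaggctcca
Rplp0: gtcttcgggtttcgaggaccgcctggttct

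Of 60 members with an entry in the RefSeq promoter table, 29 (48.3%) held such a run on the strand of the gene in at least 1 listed start. The share was 21.1% of 26965 other genes and 24.6% of 69 genes for mitochondrial ribosomal proteins. The other 20 members were not in the table. A run that begins further from an annotated start was not counted, and the window of Rpl4 holds such a run. A member without a run here may thus still carry the TOP motif. The members with and without a run are compared below only as a description.

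Per kilobase of transcript, over all 12 libraries, the highest mean levels were those of Rpl41, which encodes the shortest protein of the family, with 2946 CPM per kilobase, and of Rplp1, with 2782. Rplp0 followed with 2517, Rps2 with 2019 and Rpl13 with 1850.3 CPM per kilobase. The proteins of Rplp0, Rplp1 and Rplp2 form the stalk of the large subunit, which recruits elongation factors. The lowest means were those of Rps10 (44.8 CPM per kilobase), Rpl13a (53.3) and Rpl39l (106). The order differed between the sets of libraries. Rps2 was first with 3945 CPM per kilobase over the SSTC3 and DMSO libraries, Rplp1 with 2392 over the overexpression set and Rpl41 with 4787 over the knockdown set, where Rps2 had 489.8 and was number 67 of 80. Rpl41 was number 6 over the SSTC3 and DMSO libraries, and Rplp0 and Rplp1 were among the first 5 in each set. Part of this range lay in how counts were divided between a gene and its copies, as follows.

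Ribosomal protein genes have many processed pseudogenes, and 73 of the 80 members shared at least 1 stretch of 100 bases with another gene's transcript. The median member shared 39.9% of its stretches of that length, 13 members shared under 10% and 7 none. The stretches pointed to 470 other genes, of which 454 are pseudogenes. How counts were divided between a member and its copies differed between the sets of libraries, in treated and control libraries alike. Rpl26 had 623 and 616 CPM in SSTC3 and 474 and 511 CPM in DMSO, but 17.9 and 17.4 CPM in CK1a_KD and 14.2 and 20.5 CPM in KD_control. The genes sharing its sequence, led by Gm15772, had 36.3 and 37.6 CPM in SSTC3 and 30.9 and 32.9 CPM in DMSO, but 849 and 809 CPM in CK1a_KD and 732 and 810.2 CPM in KD_control. The counts of Rpl26 thus stood with the gene in one set and with its copies in another.

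The same was measured for Rps2, with 3906 and 3684 CPM in DMSO and 572 and 504 CPM in KD_control, while its copies had 62.3 and 57.9 and 2516 and 2015 CPM there. Rps18 went the same way, and Rpl30 went the other way, with 267 and 265 CPM in DMSO and 1120.0 and 1073 CPM in KD_control, while its copies had 129 and 121 and 12.7 and 12.6 CPM. Rps10 had fewer counts than its copies, led by Rps10-ps2, in every library. Of 79 members with counts in all 3 control groups, 10 differed by over 4-fold between them, and with copies added 2 of these still did, Rpl22l1 and Rpl35a. The remaining member, Rpl39l, is described below. Levels of a single member across sets are therefore uncertain, and changes within a comparison, whose 4 files list the same features, are given below.

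**Figure D1:**
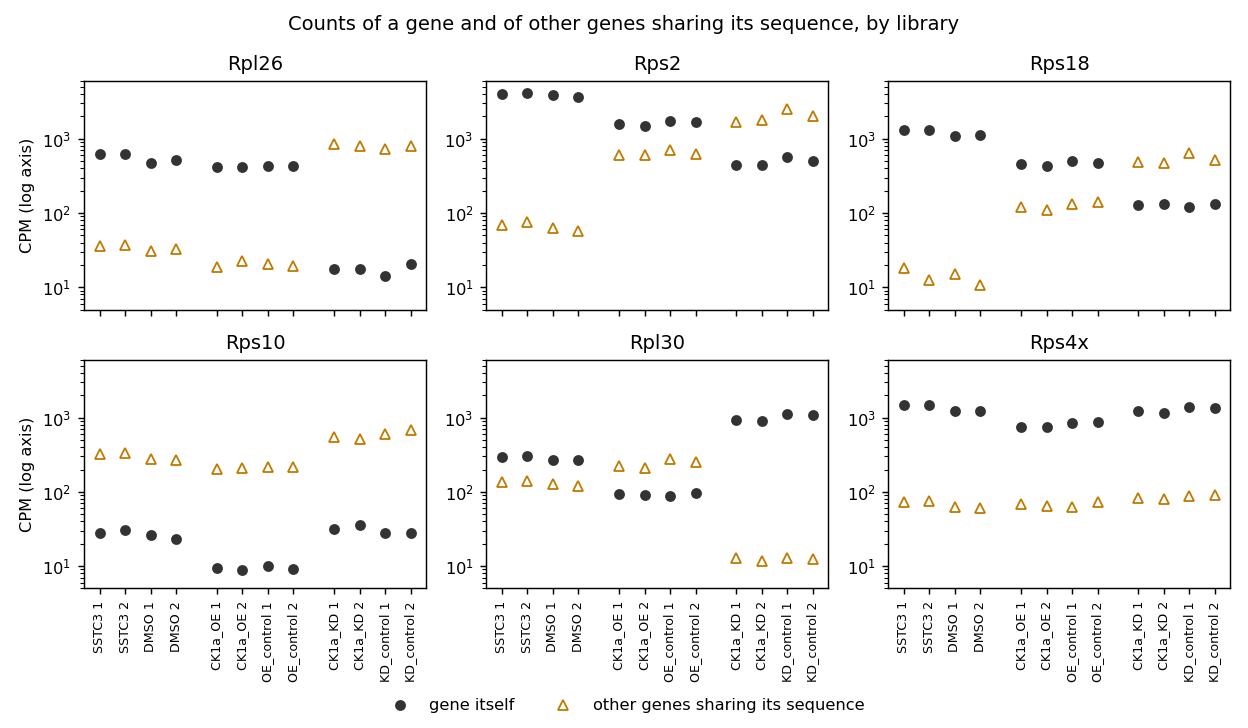
CPM of the library total (log axis) of 6 ribosomal protein genes (filled circles) and of the other genes that share stretches of 100 bases with them (open triangles) in each of the 12 libraries. Rpl26, Rps2 and Rps18 lie above their copies in SSTC3 and DMSO and below them in CK1a_KD and KD_control, Rpl30 lies below its copies in CK1a_OE and OE_control only, and Rps4x lies above its copies in every library.

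A paralog differed between sets without such sharing. Rpl39l, a paralog of Rpl39 best known from testis, had 169 and 167 CPM in CK1a_KD and 197 and 169.6 CPM in KD_control. It had no count in the other 8 libraries, where 3 counts would be 0.173 to 0.179 CPM, and it shares no stretch of 100 bases with another gene. It passed the minimum of 10 CPM only through the 4 knockdown-set libraries, so its level there is a description and supports nothing further. Rpl22l1 stood at 65.2 CPM in DMSO, 17.0 CPM in OE_control and 219 CPM in KD_control, as means of 2 libraries. Its paralog Rpl22 stood at 375, 344 and 230.1 CPM in the same groups. Across the 80 members, the order of levels in DMSO resembled that in OE_control (Spearman's rho 0.90) more than that in KD_control (rho 0.74), and with copies added the values were 0.92 and 0.85, all given as a description over genes.

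The share of all counts that fell in the 80 members was higher with SSTC3 and lower with CK1a_OE and CK1a_KD than in the controls. It was 6.428% and 6.470% in SSTC3, against 5.765% and 5.635% in DMSO. In the overexpression set it was 4.340% and 4.209% in CK1a_OE, against 4.429% and 4.563% in OE_control. In the knockdown set it was 6.835% and 6.726% in CK1a_KD, against 7.500% and 7.225% in KD_control. The groups did not overlap in any comparison, and the mean differences were 0.749, −0.222 and −0.582 percentage points. With 2 libraries against 2, the exact two-sided permutation test gave p = 0.333 in each comparison, the smallest p it allows. Shares are relative to all RNA counted, and in bulk RNA fewer cells of a type and less RNA per cell cannot be told apart. Mitochondrially encoded genes took 0.000% of counts in every library of the overexpression set, and 1.226% to 1.978% in the other libraries. The totals thus differ in content between sets, and shares are compared within a set only.

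**Figure D2:**
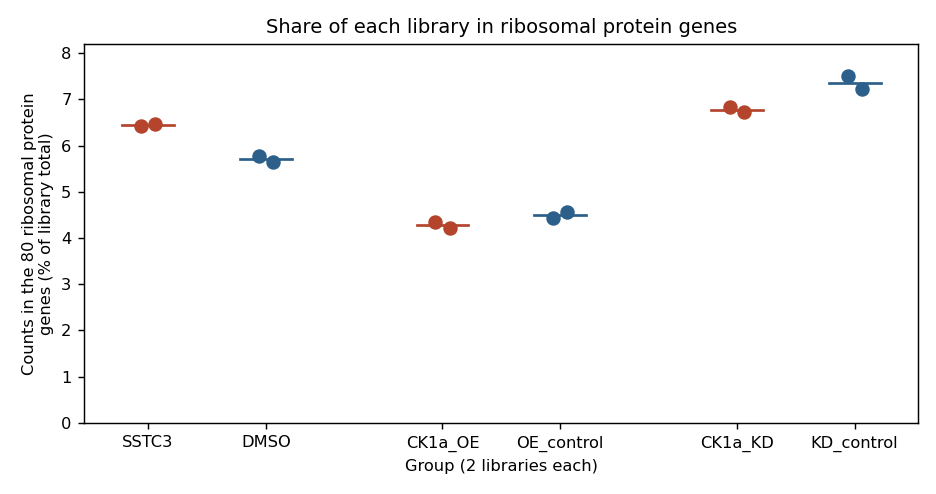
Percent of each library's counts in the 80 ribosomal protein genes, with a point for each library and a line for the mean of the group (n = 2). SSTC3 libraries lie above DMSO libraries, and CK1a_OE and CK1a_KD libraries lie below their controls. Mitochondrially encoded genes took 0.000% of the counts of CK1a_OE and OE_control, unlike in the other groups.

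With SSTC3, nearly the whole family rose, by small amounts. Of 79 members tested, 75 were higher in SSTC3 than in DMSO and none was lower in the quasi-likelihood F test of edgeR, with Benjamini-Hochberg adjustment over all 14151 genes tested and a threshold of 0.05. None was lower at an unadjusted p under 0.05 or with DESeq2 either. Of all genes, 27.1% were called higher and 26.5% lower. The median log2 fold change of the members was 0.25, or 18.8% more, beside 0.01 over all genes. All 32 small subunit members rose, with a median of 0.27, and 43 of 47 large subunit members, with a median of 0.22. No member rose by as much as 50%. In a test against a minimum change of 1.2-fold 14 members were called higher, and against 1.5-fold none at an adjusted or an unadjusted p under 0.05.

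The 6 largest rises were spread over both subunits. Rpl22l1, the paralog of Rpl22, had 97.6 and 88.8 CPM in SSTC3, against 62.9 and 65.1 CPM in DMSO. Both SSTC3 libraries lay above both DMSO libraries, with a log2 fold change of 0.54 ± 0.06 (adjusted p = 7.82e-16), SE with n = 2 libraries per group here and below. Rps27, a zinc finger protein of the small subunit, had 346 and 350.5 CPM in SSTC3, against 231 and 251 CPM in DMSO. The groups were again apart, with a log2 fold change of 0.53 ± 0.04 (adjusted p = 1.91e-29).

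Rpl10a, a protein of the mobile L1 stalk, had 1200.4 and 1146 CPM in SSTC3, against 852 and 844 CPM in DMSO. Its log2 fold change was 0.47 ± 0.03 (adjusted p = 2.80e-31), with groups apart. Rpl38, which mouse embryos need for the translation of some Hox mRNAs, had 144 and 155 CPM in SSTC3, against 110.3 and 113 CPM in DMSO. It rose by 0.42 ± 0.05 (adjusted p = 4.13e-14) on the log2 scale. Rpl36a rose by 0.41 ± 0.04 and Rps28 by 0.41 ± 0.05, both with groups that did not overlap. In the fit of all 12 libraries together, the rises of Rps27 (adjusted p = 0.293), Rpl38 (0.0783) and Rps28 (0.0791) did not pass. Their log2 fold changes in that fit were similar, at 0.52, 0.41 and 0.40.

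The stalk genes rose together. Rplp0 had 3197 and 3268 CPM in SSTC3, against 2671 and 2644 CPM in DMSO, a log2 fold change of 0.28 ± 0.03 (adjusted p = 2.71e-16). Rplp1 rose by 0.22 ± 0.03, Rplp2 by 0.25 ± 0.04 and Rpsa, the small subunit protein also known as a laminin receptor, by 0.26 ± 0.03, all with groups apart. All 7 listed genes whose proteins bind Mdm2 or act in the p53 response rose (Rpl5, Rpl11, Rpl23, Rps3, Rps7, Rps27 and Rps27l). Rpl5 had 1418 and 1405 CPM in SSTC3, against 1169.6 and 1156 CPM in DMSO and rose by 0.28 ± 0.03 (adjusted p = 2.09e-14). Rpl11, its partner in the 5S particle, had 679 and 717 CPM in SSTC3, against 663 and 622 CPM in DMSO, and its smaller rise of 0.12 ± 0.04 (adjusted p = 0.00241) did not pass without SSTC3 replicate 2 (adjusted p = 0.225), without DMSO replicate 2 (0.183) or with library totals (0.121). Of 18 genes mutated in Diamond-Blackfan anaemia, an inherited failure of red cell production in humans, 17 rose, Rps19 by 0.15 ± 0.04 among them. The shares higher were 100% of the 7 genes and 94.4% of the 18, against 94.9% of all members and 27.1% of all genes.

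The 4 members that did not pass were all of the large subunit. Rpl7l1, a paralog of Rpl7 known from ribosome assembly, had 320.3 and 329.8 CPM in SSTC3, against 332 and 343 CPM in DMSO, a log2 fold change of −0.05 ± 0.04 (adjusted p = 0.237). Rpl7 itself had 1159 and 1145 CPM in SSTC3, against 937 and 958 CPM in DMSO and rose by 0.28 ± 0.03 (adjusted p = 3.82e-14). Rpl27 (−0.01 ± 0.04), Rpl21 (0.04 ± 0.04) and Rpl7a (0.06 ± 0.03) were the others. With library totals in place of TMM factors, 70 members were higher and 1, Rpl7l1, was lower (log2 fold change −0.11, adjusted p = 0.0112).

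Other measures were read beside these rises. Mitochondrially encoded genes took 1.98% and 1.85% of counts in SSTC3, against 1.55% and 1.65% in DMSO. Without those genes the members' share was 6.56% and 6.59% in SSTC3, against 5.86% and 5.73% in DMSO, and the groups stayed apart. The 14 fibroblast markers summed to 5195 and 5283 CPM in SSTC3, against 7051 and 6764 CPM in DMSO, and 9 of 12 tested were lower and 2 higher. The part of this marker change in the result was not tested. Of 94 pseudogenes of the family tested, 30 were higher and 3 lower, with a median of 0.27. The share higher was 31.9%, near the 27.1% of all genes, and the share lower was 3.19%, against 26.5%. When each member was summed with its copies, 75 members were higher and none lower. Members that share under 10% of their sequence had a median of 0.21 and the rest 0.26.

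In the CK1a_OE libraries the family was slightly lower. Of 79 members tested, 36 were lower than in OE_control and none was higher, with none higher at an unadjusted p under 0.05 either and 47 lower at that level. DESeq2 called none higher and 24 lower. Of all 13958 genes tested, 5.78% were called higher and 7.57% lower. The median log2 fold change of the members was −0.10, or 6.47% less in CK1a_OE, beside 0 over all genes. Both subunits took part, with 20 of 47 large and 16 of 32 small subunit members lower. No member passed against a minimum change of 1.2-fold, where 1 was lower at an unadjusted p under 0.05. Without CK1a_OE replicate 2, 23 members were lower.

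Rpl22l1 had the largest fall. It had 12.1 and 12.9 CPM in CK1a_OE, against 18.2 and 16.1 CPM in OE_control, and both CK1a_OE libraries lay below both controls, with a log2 fold change of −0.46 ± 0.13 (adjusted p = 0.00857). Its counts are low, and the fall did not pass in DESeq2 (adjusted p = 0.103), without CK1a_OE replicate 1 (0.0576) or without OE_control replicate 1 (0.167). Rps4x, the X-linked form of a small subunit protein, had 738 and 740.3 CPM in CK1a_OE, against 864 and 868 CPM in OE_control. Its replicates were close together, and its log2 fold change was −0.23 ± 0.03 (adjusted p = 8.04e-10). Rps9 had 611 and 562 CPM in CK1a_OE, against 683 and 687 CPM in OE_control, a log2 fold change of −0.22 ± 0.03 (adjusted p = 1.99e-06). Rpl37a fell by 0.22 on the log2 scale, and not in DESeq2 (adjusted p = 0.205). Rpl11 fell by 0.21, with groups apart.

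Of the stalk genes only Rplp1 passed. It had 1173 and 1093 CPM in CK1a_OE, against 1268 and 1248 CPM in OE_control, a log2 fold change of −0.15 ± 0.03 (adjusted p = 8.69e-05). Rplp0 had 2745 and 2770.2 CPM in CK1a_OE, against 2692 and 2793 CPM in OE_control, and these groups overlapped (0.01 ± 0.02, adjusted p = 0.851). Rplp2 (−0.07 ± 0.03) and Rpsa (0.01 ± 0.02) did not pass. Of the 7 genes linked to Mdm2 and p53, 5 fell and none rose, and of the 18 anaemia genes 7 fell and none rose. The shares lower were 71.4% and 38.9%, against 45.6% of all members and 7.57% of all genes. The falls of Rpl5, Rps3 and Rps7 did not pass in DESeq2 (adjusted p = 0.097, 0.113 and 0.134). Nor did they in the fit of all 12 libraries (0.0739, 0.0695 and 0.0802). The paralog list also holds parent genes such as Rpl7 and Rpl22. Of its 14 genes tested, 4 fell (28.6%) and none rose, against 11 of 14 higher (78.6%) and none lower with SSTC3. Pseudogenes of the family had none higher and 8 lower of 80 tested, with a median of −0.12. The share lower was 10%, near the 7.57% of all genes, of which 5.78% were higher. The fibroblast markers had 5 lower of 8 tested and none higher, and the part of this in the result was not tested.

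Some members varied far more between replicates than between groups in this set. Rpl17 had 69.6 and 187 CPM in CK1a_OE, against 79.6 and 189 CPM in OE_control, so that replicate 1 lay below replicate 2 in both groups. Rps27 had 82.7 and 210.2 CPM in CK1a_OE, against 181 and 175 CPM in OE_control, while the genes sharing its sequence, led by Rps27rt, had 148 and 24.4 CPM in CK1a_OE and 40.5 and 65.6 CPM in OE_control. The low Rps27 library was thus the one with high counts in its copy. The log2 fold change of Rps27 was −0.28 ± 0.62 (adjusted p = 0.851), and without CK1a_OE replicate 1 it was 0.24 in the other direction (adjusted p = 6.51e-06). Rps27a, a ubiquitin fusion, had 438 and 209 CPM in CK1a_OE, against 215 and 297 CPM in OE_control. In all, 7 members had an SE above 0.2 in this comparison, and none did in the other two.

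With CK1a knockdown, the family split. Of 80 members, 39 were lower in CK1a_KD than in KD_control and 20 were higher, while 28.3% of all 14832 genes tested were called higher and 26.4% lower. The members' share called higher (25%) was thus close to that of all genes, and their share called lower (48.8%) stood above it. The median log2 fold change was −0.09, or 6.36% less in CK1a_KD, beside −0.01 over all genes. Against a minimum change of 1.2-fold 3 were higher and 4 lower, and against 1.5-fold none was called, with 1 higher at an unadjusted p under 0.05. Without CK1a_KD replicate 2, 13 were higher and 25 lower. Pseudogenes had 7 higher (7.45%, against 28.3% of all genes) and 13 lower (13.8%, against 26.4%) of 94 tested. The macrophage markers summed to 302.6 and 300.9 CPM in CK1a_KD, against 261.7 and 255.9 CPM in KD_control, and nearly all of this was Cd68, with 296 and 294.6 CPM in CK1a_KD, against 252 and 246 CPM in KD_control. Of 5 macrophage markers tested 1 was higher and 2 lower, with a median of −0.64, and of 8 fibroblast markers 1 was higher and 3 lower. The part of these markers in the result was not tested.

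**Figure D3:**
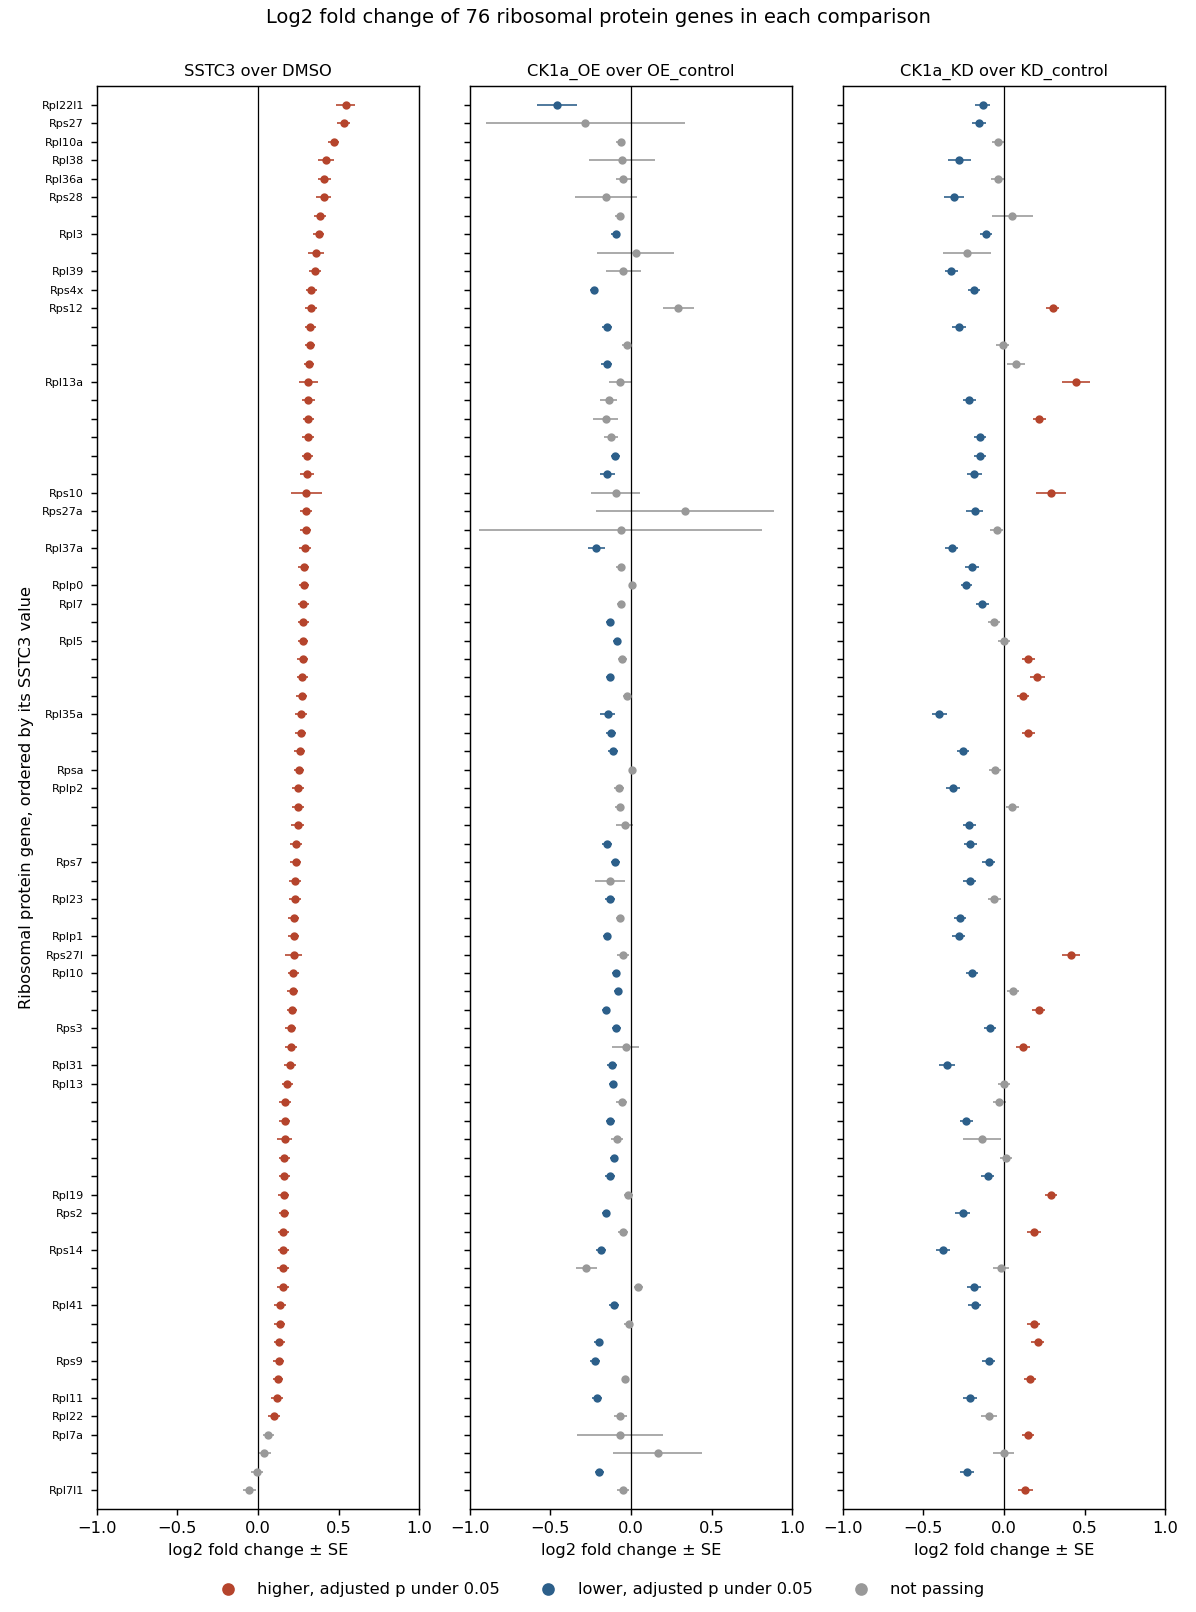
Log2 fold change ± SE (edgeR, n = 2 libraries per group) of 76 ribosomal protein genes tested in all 3 comparisons, ordered by their SSTC3 value, with labels for some of them and colours for adjusted p under 0.05. Nearly all lie right of 0 for SSTC3 over DMSO, most lie slightly left of 0 for CK1a_OE over OE_control, and they lie on both sides for CK1a_KD over KD_control.

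Members of both subunits were among the larger falls with knockdown. Rpl35a, an anaemia gene of the large subunit, had 520.3 and 526 CPM in CK1a_KD, against 741 and 642 CPM in KD_control. Both CK1a_KD libraries lay below both controls, with a log2 fold change of −0.40 ± 0.05 (adjusted p = 1.77e-08). Rps14, whose loss on the long arm of chromosome 5 is known from a human anaemia, had 1158 and 1150.1 CPM in CK1a_KD, against 1598 and 1399.5 CPM in KD_control and fell by 0.38 (adjusted p = 8.06e-09). Rpl31 fell by 0.35, Rpl39 by 0.33 and Rpl37a by 0.33, all with groups apart. Of the 18 anaemia genes, 9 fell and 3 rose. These were 50% and 16.7%, against 48.8% and 25% of all members and 26.4% and 28.3% of all genes.

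All 3 stalk genes fell. Rplp0 had 4208 and 4201 CPM in CK1a_KD, against 5000.2 and 4888 CPM in KD_control, a log2 fold change of −0.23 ± 0.04 (adjusted p = 5.99e-08). Rplp1 had 1407 and 1415 CPM in CK1a_KD, against 1822 and 1610.3 CPM in KD_control, and Rplp2 had 855 and 872 CPM in CK1a_KD, against 1136 and 1018 CPM in KD_control. Their log2 fold changes were −0.28 ± 0.04 (adjusted p = 3.11e-07) and −0.32 ± 0.04 (adjusted p = 2.43e-09). Rpsa (−0.05 ± 0.04) did not pass. Rpl22l1 fell slightly, by 0.13, in a call that did not pass without CK1a_KD replicate 1 or 2 (adjusted p = 0.136 and 0.189), without KD_control replicate 1 (0.0771), with no filter (0.0616) or in DESeq2 (0.052).

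Rpl13a was among the members that rose. It is released from the ribosome in the interferon-gamma response of human cells, and it had 40.9 and 40.2 CPM in CK1a_KD, against 30.0 and 29.6 CPM in KD_control, a log2 fold change of 0.44 ± 0.09 (adjusted p = 1.39e-05). Both CK1a_KD libraries lay above both controls. Of the exons of Rpl13a, 35.4% overlap other annotated genes, Gm45713 among them, so its counts are uncertain to that extent. Its log2 fold change was 0.31 ± 0.06 with SSTC3, and −0.07 ± 0.07 with CK1a_OE, which did not pass.

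Rps27l, a paralog of Rps27 known as a target of p53, also rose. It had 142 and 143 CPM in CK1a_KD, against 111 and 103 CPM in KD_control, and its log2 fold change was 0.42 ± 0.05 (adjusted p = 1.25e-09). Rps27 itself had 578 and 542 CPM in CK1a_KD, against 658 and 589.5 CPM in KD_control and fell (−0.16 ± 0.04, adjusted p = 0.00288), although not without CK1a_KD replicate 2 (adjusted p = 0.209) or in the fit of all 12 libraries (0.696). The pair thus moved in opposite directions. Of the other genes linked to Mdm2 and p53, Rpl11, Rps3 and Rps7 fell, and Rpl5 (0.00 ± 0.04) and Rpl23 (−0.06 ± 0.04) did not pass. In this list of 7 genes 57.1% were lower and 14.3% higher, against 48.8% and 25% of all members. The fall of Rps3 did not pass with no filter (adjusted p = 0.169) or with a replicate block (0.0759). That of Rps7 did not pass in these 2 settings (0.149 and 0.0597), in DESeq2 (0.0797) or summed with its copies (0.108). Without CK1a_KD replicate 2 the log2 fold changes were −0.075 for Rps3 and −0.039 for Rps7. Rps12 rose by 0.30 ± 0.04 and Rpl19 by 0.29 ± 0.04. Rps10 was called higher (0.29 ± 0.09, adjusted p = 0.00634), but together with its more abundant copies it was lower (−0.21, adjusted p = 0.00014). The fall of Rps2 (−0.26 ± 0.05) did not pass once its copies were added (adjusted p = 0.192).

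Coding length went with direction in the knockdown. Of the 27 members with the shortest coding sequences (25 to 132 codons), 19 fell and 3 rose, with a median log2 fold change of −0.21. Of the 26 members of 133 to 188 codons, 10 fell and 5 rose, with a median of −0.05. Of the 27 longest (192 to 419 codons), 10 fell and 12 rose, with a median of 0.00. Spearman's rho between coding length and log2 fold change over the 80 members was 0.41, given as a description, since genes are not replicates and all share the same 4 libraries. It was −0.21 for SSTC3 and 0.07 for CK1a_OE, over 79 members each.

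Other coding genes of the same lengths leaned the same way by less. The 628 others in the range of the shortest members had a median of −0.12 with knockdown, the 763 in the middle range −0.03 and the 3960 in the longest range 0.02. Over all 12113 other coding genes tested, rho was 0.06. Shorter genes thus also stood lower outside the family. With SSTC3 other short coding genes leaned upwards, with a median of 0.10, 183 higher and 79 lower of 579 in the range of the shortest members, beside a median of 0.27 for those members. The 727 others in the middle range had a median of 0.08, and rho over 11854 other coding genes was −0.13. For both comparisons the part of coding length in the members' result was not tested.

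**Figure D4:**
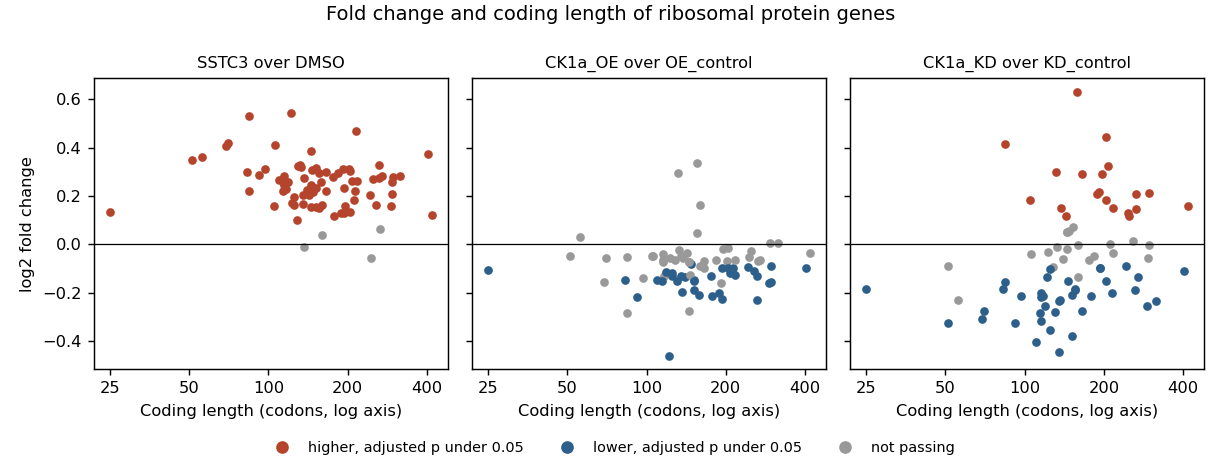
Log2 fold change of ribosomal protein genes against coding length in codons (log axis) in the 3 comparisons, with colours for adjusted p under 0.05. In CK1a_KD over KD_control the genes of 132 codons or fewer lie mostly below 0 and the longer ones on both sides.

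The members were also counted by other properties. With knockdown, 29 members with a pyrimidine run at a listed start had a median of −0.03, with 11 higher and 14 lower, and 31 without had a median of −0.09, with 6 higher and 14 lower. With SSTC3, 28 of 29 with a run and 28 of 30 without were higher. With CK1a_OE, 11 of 29 with a run and 15 of 30 without were lower. The 30 members that host a snoRNA had 8 higher and 14 lower with knockdown, and the other 50 had 12 higher and 25 lower. These counts were not compared by a test.

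Set side by side, 22 members were higher with SSTC3 and lower in both CK1a_OE and CK1a_KD, Rpl11, Rplp1 and Rps4x among them. These were 27.8% of the 79 members tested in all comparisons, against 0.998% of all 11728 genes tested in all of them. A further 16 (20.3%, against 7.6% of all genes) were higher with SSTC3, lower with knockdown and not called with overexpression, and 12 (15.2%, against 6.65%) were higher with both SSTC3 and knockdown and not called with overexpression. Another 6 (7.59%, against 0.989%) were higher with SSTC3 and knockdown and lower with overexpression. As nearly all members were higher with SSTC3, each of these shares contains that result. The 3 comparisons share no library.

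The differences between effects were tested with edgeR, fitting the 12 libraries jointly over 17105 genes. The SSTC3 effect was higher than the knockdown effect for 56 of 80 members and lower for 3, against 23.5% and 21.6% of all genes, with a median difference of 0.36 beside 0.08 over all genes. It was higher than the overexpression effect for 66 members and lower for none, also at an unadjusted p under 0.05, against 17.2% and 15.5% of all genes. The knockdown effect was higher than the overexpression effect for 17 members and lower for 16, against 18.3% and 16.8% of all genes, shares close to those of the family. For Rps4x the SSTC3 effect exceeded the knockdown effect by 0.55 ± 0.05 (adjusted p = 2.77e-18) and the overexpression effect by 0.55 ± 0.05 (adjusted p = 6.17e-18), as differences of log2 fold changes.

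Genes around the ribosome did not all follow its proteins. The 7 genes listed as elongation factors, whose mRNAs mostly carry the TOP motif, include Eef2k, a kinase that acts on Eef2. Of these, 4 were higher with SSTC3 and only Eef2k was lower (−0.73 ± 0.09, adjusted p = 2.04e-12). With CK1a_OE none was higher and 6 were lower, and with knockdown 4 were higher and 2 lower. The shares higher and lower were 57.1% and 14.3% with SSTC3, 0% and 85.7% with CK1a_OE, and 57.1% and 28.6% with knockdown. Over all genes these shares were 27.1% and 26.5%, 5.78% and 7.57%, and 28.3% and 26.4%. Eef1a1, which brings tRNAs to the ribosome, moved by 0.27 ± 0.03, −0.09 ± 0.02 and 0.27 ± 0.04 in these comparisons. Eef2, which moves the ribosome along, moved by 0.28 ± 0.03, −0.12 ± 0.02 and 0.45 ± 0.04. Of 12 other TOP mRNAs, 10 were higher and 1 lower with SSTC3, 1 higher and 3 lower with CK1a_OE, and 6 higher and 3 lower with knockdown. These were 83.3% and 8.33%, 8.33% and 25%, and 50% and 25%, beside the shares of all genes given above. Rack1, a scaffold protein of the small subunit outside the name rule, had 0.26 ± 0.03, −0.19 ± 0.03 and −0.09 ± 0.04 and passed in all 3, as did the fusion gene Fau with 0.16 ± 0.03, −0.13 ± 0.03 and 0.34 ± 0.04.

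Factors that build ribosomes were called lower more often than higher with SSTC3, and mostly higher with knockdown. Of 55 assembly factors, 10 were higher and 26 lower with SSTC3, with a median of −0.10. With knockdown 43 were higher and 4 lower, with a median of 0.41, and with CK1a_OE 6 were higher and 2 lower. The shares higher and lower were 18.2% and 47.3% with SSTC3, against 27.1% and 26.5% of all genes. They were 78.2% and 7.27% with knockdown, against 28.3% and 26.4%, and 10.9% and 3.64% with CK1a_OE, against 5.78% and 7.57%. Rrp1b, Rrp12, Grwd1 and Nop2 led the rises with knockdown, and Nop2, a methyltransferase of large subunit rRNA, had 276 and 279.8 CPM in CK1a_KD, against 155 and 149 CPM in KD_control. It rose by 0.87 ± 0.05 (adjusted p = 5.44e-25) there, against −0.46 ± 0.04 (adjusted p = 1.48e-21) with SSTC3. A further list held 14 genes of RNA polymerase I, which transcribes the rRNA genes, and of rRNA gene transcription, Taf1d and Ubtf among them. Of these, 11 rose and none fell with knockdown (78.6% and 0%), with a median of 0.49. With SSTC3 6 rose and 4 fell (42.9% and 28.6%, against 27.1% and 26.5% of all genes). Polr1b, the second largest subunit of RNA polymerase I, had 164 and 154 CPM in CK1a_KD, against 81.8 and 80.5 CPM in KD_control.

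Of 77 protein genes of the mitochondrial ribosome tested, 5 were higher and 21 lower with SSTC3, 2 and 3 with CK1a_OE, and 31 and 14 with knockdown, with medians of −0.08, −0.01 and 0.10. The share lower with SSTC3 was 27.3%, near the 26.5% of all genes, and the share higher was 6.49%, against 27.1%. With knockdown 40.3% were higher, against 28.3% of all genes. Of 18 listed regulators of TOP mRNAs and ribosome synthesis, 6 were higher and 9 lower with SSTC3, 2 and 1 with CK1a_OE, and 8 and 7 with knockdown. With SSTC3 these were 33.3% and 50%, against 27.1% and 26.5% of all genes. The shares were 11.1% and 5.56% with CK1a_OE, against 5.78% and 7.57%, and 44.4% and 38.9% with knockdown, against 28.3% and 26.4%. Myc, a transcription factor known to raise ribosomal genes, had 78.8 and 78.2 CPM in SSTC3, against 3.51 and 3.62 CPM in DMSO. The next smallest adjusted p-values with SSTC3 were those of Sesn2 (2.35 ± 0.06), Ddit4 (0.93 ± 0.06) and Rheb (0.60 ± 0.05), all higher. The part of these regulators in the members' result was not tested. With knockdown Myc had 429.7 and 432 CPM in CK1a_KD, against 960.0 and 942 CPM in KD_control. Larp1, which binds the TOP motif, had 649 and 639 CPM in CK1a_KD, against 284 and 291 CPM in KD_control, a log2 fold change of 1.16 ± 0.04 (adjusted p = 4.78e-34). Of snoRNA host genes that encode no ribosomal protein, 6 of 10 rose and 1 fell with SSTC3, Snhg1 by 0.62 ± 0.05 among them, and 2 of 11 rose and 3 fell with knockdown, with Snhg1 at −0.59 ± 0.06. The knockdown shares of the host genes, 18.2% higher and 27.3% lower, were near or below those of all genes. Their SSTC3 shares were 60% higher and 10% lower, against 27.1% and 26.5% of all genes.

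**Figure D5:**
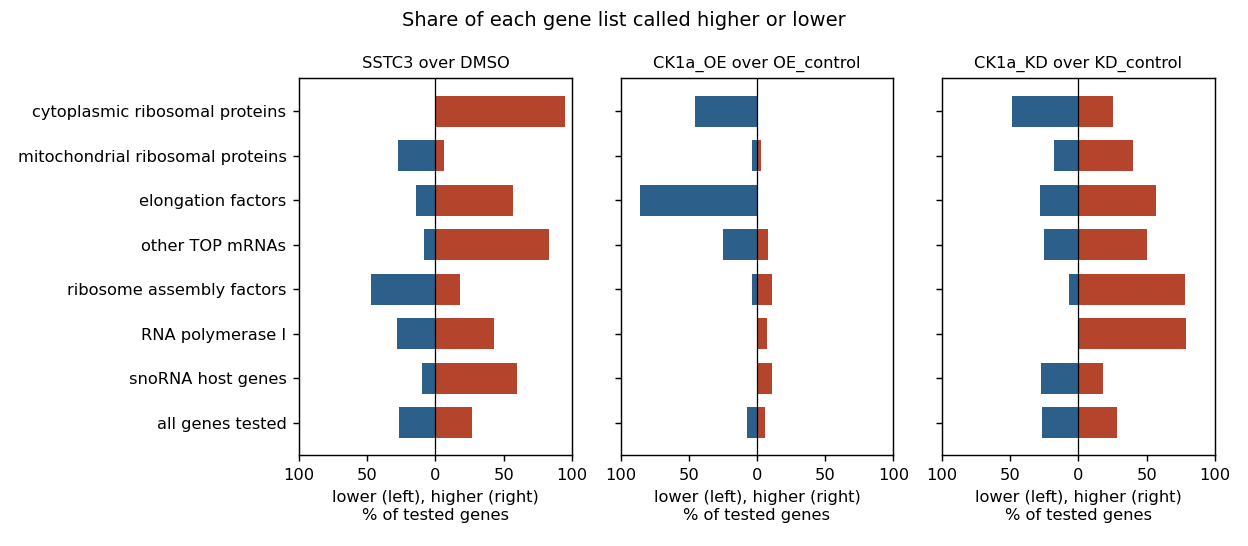
Percent of the tested genes of each list called lower (bars to the left) or higher (bars to the right) at an adjusted p under 0.05 in the 3 comparisons, with all genes tested in the bottom row. Cytoplasmic ribosomal proteins are called higher almost throughout for SSTC3 over DMSO, and assembly factors and the RNA polymerase I list mostly higher for CK1a_KD over KD_control. That list also holds other genes of rRNA gene transcription.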

How the data were processed

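Poly(A) RNA of 12 libraries was sequenced as pairs of 150-base reads, per the labels' protocols. HISAT2 and featureCounts and the build mm10 are named in the submitters' processing notes. Their versions, the annotation and the strand setting were not given in the sources used here. Deposited files hold whole-number counts per gene with no scaling.

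For each comparison the 4 libraries concerned were fitted separately in edgeR 4.0.16 (R 4.3.3) by quasi-likelihood, with filterByExpr, TMM factors, robust estimation and no block. Benjamini-Hochberg adjustment took in every gene of the fit, and 0.05 was the threshold. The SE is the absolute log2 fold change divided by the square root of F. CPM within a comparison uses TMM factors, and CPM across sets uses library totals. Pairs of replicates differed by more than sampling noise (chi-square of 2.29 to 3.61 per degree of freedom), so none was counted as a copy. The procedure was tested on simulated data.

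Stretches of 100 bases were compared over all GENCODE M21 transcripts. The members and lists were chosen with earlier results of these data known. Named members are the stalk, p53 and paralog lists, the 6 largest changes per direction with groups apart, and the 5 highest and 3 lowest levels per kilobase, and other lists are named by smallest adjusted p. Members named beyond this were chosen after their values were seen. Alternatives were RLE factors, library totals, TMM without the members, DESeq2 1.42.0, limma-voom 3.58.1, other filters, all 12 libraries, a replicate block, minimum changes, each library left out and, added after seeing the data, members summed with copies. No protein sequences were used here. A few members that the rule would name are not reported here by name.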

Additional observations from a re-analysis of the deposited data

Results flagged for a closer look

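Results are listed here because the effects of the same genes differed between comparisons in a test of the difference itself, with edgeR fitted to the 12 libraries jointly and adjustment over every gene in that fit. The SSTC3 effect was higher than the knockdown effect for 56 members and lower for 3. The 4 smallest adjusted p-values belonged to Rplp0 with a difference of 0.55 ± 0.04 (adjusted p = 2.66e-21), Rps15a with 0.63 ± 0.05 (adjusted p = 2.54e-18), Rps4x with 0.55 ± 0.05 (adjusted p = 2.77e-18) and Rpl12 with 0.53 ± 0.05 (adjusted p = 2.40e-17), on the log2 scale. The SSTC3 effect was higher than the overexpression effect for 66 members. Here Rps4x differed by 0.55 ± 0.05 (adjusted p = 6.17e-18), Rpl10a by 0.53 ± 0.05 (adjusted p = 9.38e-16), Rpl3 by 0.47 ± 0.05 (adjusted p = 3.60e-14) and Rpl22l1 by 1.00 ± 0.11 (adjusted p = 2.48e-12). The knockdown effect was higher than the overexpression effect for 17 members and lower for 16, near the shares of all genes. Of single members, Rpl18 differed by 0.38 ± 0.05 (adjusted p = 1.36e-09) and Rpl6 by 0.34 ± 0.05 (adjusted p = 2.10e-09). The sets also differ in cells and in the features their files list, and effects of the cells and of the treatments cannot be told apart between sets.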

How the results depend on the processing

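Counts of all genes and of members called were taken as kept within 1.5 times of those reported, and medians within the spread between replicates. Shares of all counts in the members were compared by sign only. By these rules 270 of 308 values over the alternatives were kept. A count of calls has no direction that could reverse, and no median or share changed sign. With library totals the SSTC3 comparison gave 1 member lower and a median of 0.19, and the knockdown median was −0.13, as it was (−0.13) with all 12 libraries. Minimum changes of 1.2-fold left 3869, 74 and 5042 of all genes for SSTC3, overexpression and knockdown, with 14 members higher, 0 lower, and 3 higher and 4 lower. At 1.5-fold 1482, 4 and 2002 genes and 0 members were left in each comparison and direction; a higher minimum leaves fewer genes by construction. For overexpression DESeq2 called 607 genes and the fit of all 12 libraries 1188, while members higher numbered 1 with no filter, 1 with all 12 libraries, 1 when summed with copies and 2 with the replicate block; the cause was not tested. Leaving out each library gave 6125 to 6718 genes for SSTC3, with 69 to 75 members higher and a median of 0.23 to 0.25. For overexpression it gave 1065 to 1478 genes, 0 to 3 members higher, 23 to 44 lower. For knockdown it gave 13 to 22 higher, 25 to 47 lower, and a median of −0.113 to −0.068. The 3 members with the SSTC3 effect below the knockdown effect became 1 to 4, and the 0 below the overexpression effect 0 to 1. Of single genes, Rps27 with overexpression reversed to 0.239 without CK1a_OE replicate 1 and was −1.107 without CK1a_OE replicate 2, and Rps10 with knockdown to −0.21 when summed with its copies. With the replicate block the counts were 75 higher for SSTC3, 38 lower for overexpression, and 20 higher and 36 lower for knockdown. Over all genes tested, deviations by replicate number were nearly uncorrelated across groups (−0.02, −0.01 and 0.01), so replicate numbers were not used as pairs. Single members could differ, as Rpl17 had replicate 1 below replicate 2 in both groups of the overexpression set. Genes at few counts, such as Rps10, Rpl26 and Rpl29 in some sets, had an SE of up to 0.155 (Rps10 with overexpression), which hides changes of the size seen for the family.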
